A study of Arabidopsis thaliana with 28 samples.

Results

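The whole stem cell niche (SCN) of the Arabidopsis thaliana root was compared with the quiescent center (QC), the small group of cells at the middle of that niche. The comparison used 7 of the 28 samples of the series and 18206 of the 33201 genes in its table, namely those with an FPKM (fragments scaled to the length of the gene and to the mapped reads of the sample) of at least 1 in at least 3 of the 7 samples. The other 14995 genes did not reach that level and were not tested, and 5445 of them were listed at 0 in all 7 samples. SCN cells were the GFP-positive cells of 4 replicates of the AGL42:GFP line, and QC cells were the GFP-positive cells of 3 replicates of the WOX5:GFP line. All seedlings were Col-0, were 5 days old and carried the marker transgene of their line, and in both lines roots were cut, turned into protoplasts with wall-digesting enzymes, and sorted by fluorescence. Each population came from a single marker line, so the population and the line cannot be told apart. The other 21 samples held 5 further stem cell populations, each from its own line, and non-stem cells (NSCs), sorted as cells without GFP from AGL42:GFP roots.

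The QC divides rarely and keeps the stem cells that touch it from differentiating. WOX5, a homeobox transcription factor of the WUSCHEL family, is transcribed in the QC and its loss lets the neighbouring columella stem cells differentiate. AGL42 is a MADS-box transcription factor whose reporter marks the QC and cells around it. The study uses the AGL42 sort as its sample of the whole niche. On that reading the QC is part of both populations compared. The share of each kind of initial in the sort was not tested. In sorted bulk samples, fewer cells of a type and less RNA per cell cannot be told apart.

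The likeness of samples within a population and between populations overlapped. Pearson correlations of log2(FPKM + 1) across the genes tested, which are not independent replicates, ran from 0.6858 to 0.8294 among SCN samples, from 0.784 to 0.851 among QC samples, and from 0.698 to 0.887 between an SCN and a QC sample. The most alike pair was SCN replicate 2 and QC replicate 1. SCN replicate 3 stood apart on the first principal component, which held 28.8% of the variance, at 160 against -70.3 to 19.4 for the other 6 samples. Genes at an FPKM of at least 1 numbered 14585 to 18778 in SCN samples and 14955 to 18261 in QC samples. The median SD over genes was 0.89 on the log2 scale in SCN samples and 0.64 in QC samples. Of 6179 genes with a median FPKM of at least 20 over the 7 samples, 53 were listed at 0 in at least 1 of them, and 31 of these were at 0 in SCN replicate 3. A value of 0 is therefore given as listed, and it enters the differences of mean log2 values as listed. FPKM carries no read counts, so the sequencing depth of a sample is unknown.

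The markers that define the populations were read first. WOX5 stood at an FPKM of 264, 145 and 127 in QC replicates 1, 2 and 3, and at 13.9, 30.8, 0 and 27.8 in SCN replicates 1, 2, 3 and 4. Every QC sample lay above every SCN sample, and SCN replicate 3 was listed at 0. The difference, SCN minus QC, was -3.98 ± 0.98 on the log2(FPKM + 1) scale (SE; limma unadjusted p = 0.00148, adjusted p = 0.950), and WOX5 was not called. AGL42 stood at 4.73, 31.9, 7.18 and 14.2 in SCN samples and at 10.15, 14.1 and 19.3 in QC samples. Its groups overlapped, with a difference of -0.28 ± 0.67 (limma adjusted p = 0.981). All 7 samples lay above the NSC samples of the AGL42:GFP line, in which AGL42 ranged from 1.05 to 2.60. Among the other stem cell populations, AGL42 averaged 11.7 in the cortex endodermis initials and 7.89 in the protophloem. It averaged 1.74 in the columella stem cells, 0.124 in the xylem and 0.0234 in the epidermis and lateral root cap population. WOX5 ranged from 1.28 to 6.95 in the NSC samples, below 3 of the 4 SCN samples and above SCN replicate 3. SCR and TEL1, which are described further on, were also listed at 0 in SCN replicate 3, and some results are therefore also given without that sample.

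To ask which genes separate the whole niche from its center, each gene was tested with limma on log2(FPKM + 1) and called at a p-value under 0.06 after Benjamini-Hochberg adjustment and a fold-change above 2. A single gene, AT3G17100, was called higher in the SCN (0.00549% of the genes tested) and none was called lower (0.0%). At an unadjusted p under 0.05, 411 genes were higher (2.26%) and 446 were lower in the SCN (2.45%), and after scaling by size factors 540 were higher and 326 lower. The higher genes numbered 256 without SCN replicate 4 and 221 without QC replicate 3, and the lower genes 816 without SCN replicate 2, 258 without QC replicate 2 and 287 without QC replicate 3. Every SCN sample lay above every QC sample for 328 genes (1.8%) and below every QC sample for 689 genes (3.78%), and after scaling by size factors for 438 and 472 genes. Neither these shares together nor those at the unadjusted p exceed what chance alone gives with 4 and 3 samples. Genes in these sets are therefore not shown to differ. Of the 689, 39 had passed the filter through the 3 QC samples alone, and 53 of the 328, AT3G17100 among them, through SCN samples alone. The filter fixed the separation of the former and favoured that of the latter. The difference was below 0 for 59.7% of the genes and above 0 for 40.3%, with a median of -0.15. The same scaling moved the median to -0.01, so differences of that size carry no direction. The 95% interval of the difference spanned 0 for 95.3% of the genes, with a median half-width of 1.52. At this spread between replicates, a difference of less than about that size was not told from 0 for most genes, even before adjustment. A call took more, since differences of -4.87 for the gene SKS6, -3.98 for WOX5 and 3.54 for AT3G17090 were not called. The call on AT3G17100 held without SCN replicate 3 (limma adjusted p = 0.0495) and was lost without each of the other 6 samples, with limma adjusted p-values up to 0.168.

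**Figure D1:**
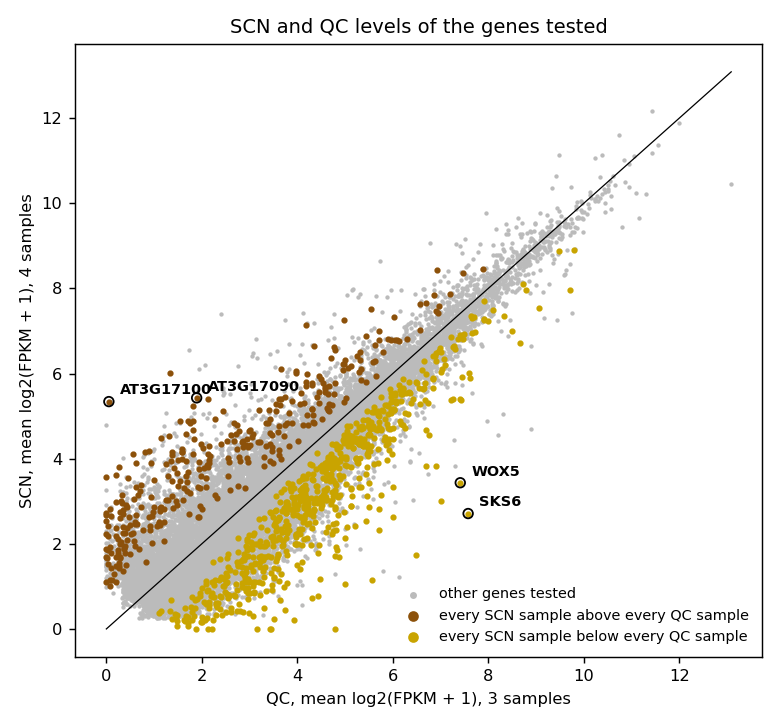
Each point is 1 of the 18206 genes tested, at its mean log2(FPKM + 1) over the 3 QC samples (x) and the 4 SCN samples (y), with the line of equal level. Brown points are the 328 genes whose SCN samples all lay above the QC samples and yellow points the 689 whose SCN samples all lay below, with AT3G17090, AT3G17100, WOX5 and SKS6 ringed.

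AT3G17100, annotated as a sequence-specific DNA binding transcription factor, and its neighbour AT3G17090, annotated as a member of the protein phosphatase 2C family, were lower in every QC sample than in every SCN sample. AT3G17100 stood at an FPKM of 32.6, 32.1, 66.0 and 35.2 in the SCN samples and at 0.0625, 0.0503 and 0 in the QC samples. The difference was 5.29 ± 0.63 on the log2(FPKM + 1) scale (limma adjusted p = 0.0341), higher in 4 of 4 SCN samples. AT3G17090 stood at 40.2, 29.4, 56.9 and 46.5 in the SCN and at 3.41, 4.61 and 1.06 in the QC, a difference of 3.54 ± 0.56 (limma adjusted p = 0.151), so it was not called. The genes lie next to each other on the forward strand of chromosome 3 in the TAIR10.1 assembly, AT3G17090 at 3:5826586-5829900 and AT3G17100 at 3:5831136-5832733, with 1235 bases between them. AT3G17120, the nearest downstream gene that passed the filter, ranged from 13.9 to 33.1 in the SCN and from 8.36 to 26.5 in the QC. The genes directly beside them were at or near 0 in both populations. AT3G17080 reached at most 0.209 in the SCN and 1.01 in the QC, and AT3G17110 reached at most 0.835 in the SCN and was listed at 0 in all QC samples.

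The low level of both genes also set the QC samples apart from the rest of the series. All 3 came from the WOX5:GFP line, so a trait of the line and one of the QC cannot be told apart. In the 21 samples of the other populations AT3G17100 ranged from 14.3 to 106 and AT3G17090 from 21.6 to 84.4. A search made after these values were seen asked for genes at an FPKM of at least 5, and more than 2-fold above the highest QC sample, in all 25 other samples. It returned these 2 genes and no other. The reverse search, for genes whose 3 QC samples were all at least 5 and more than 2-fold above all 25 other samples, returned WOX5 and AT2G24700, a gene on chromosome 2. AT2G24700 stood at 21.8, 19.1 and 21.4 in the QC and at 4.02, 6.95, 0 and 2.47 in the SCN (difference -2.66 ± 0.79, limma adjusted p = 0.950). The same searches for the SCN returned 0 genes in either direction. For the other populations they returned up to 26 genes (xylem) below all other samples. The count was 0 for both the cortex endodermis initials and the epidermis and lateral root cap population. They returned from 2 (protophloem) to 98 genes (NSCs) above all other samples. Having such genes was therefore not particular to the QC.

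**Figure D2:**
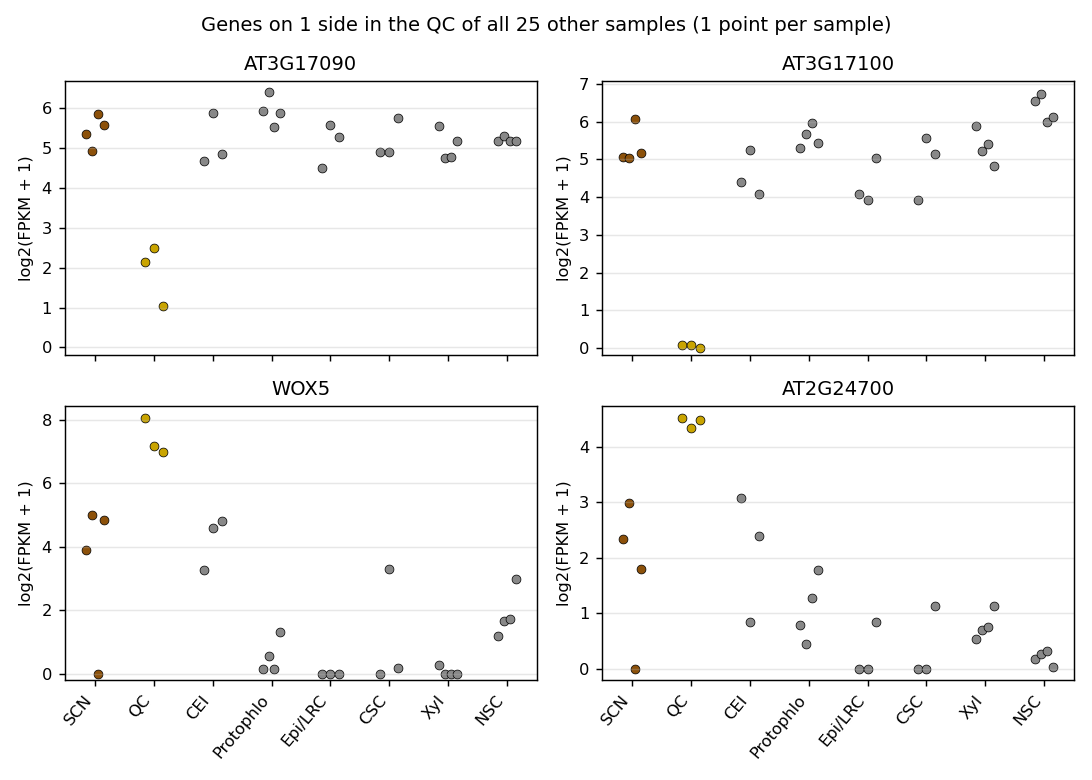
Points are the 28 samples, by population (x), at their log2(FPKM + 1) (y), for AT3G17090, AT3G17100, WOX5 and AT2G24700. The 3 QC samples lie below all 25 other samples for AT3G17090 and AT3G17100 and above all of them for WOX5 and AT2G24700.

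The 250 bases before the start of these genes were read from RefSeq assembly TAIR10.1 and are shown, 5′ to 3′ on the strand of the gene, because AT3G17090 and AT3G17100 differ together while WOX5 and WIP4 differ the other way. Windows of 300 bases, 250 before and 50 after the start, were searched on both strands for the telo box (AAACCCTA), site II (TGGGCC), E2F sites (TTTCCCGC and TTTGGCGC), the core of the mitosis-specific activator site (AACGG), the G box (CACGTG), the auxin response element (TGTCTC) and the heat shock element (GAANNTTC), and matches are in capitals. AT3G17090, AT3G17100 and WOX5 held none of these, WIP4 held site II, and AT3G24100, which is described further on, held the mitosis-specific core and a heat shock element.
AT3G17090 (chr3:5826336-5826585, forward): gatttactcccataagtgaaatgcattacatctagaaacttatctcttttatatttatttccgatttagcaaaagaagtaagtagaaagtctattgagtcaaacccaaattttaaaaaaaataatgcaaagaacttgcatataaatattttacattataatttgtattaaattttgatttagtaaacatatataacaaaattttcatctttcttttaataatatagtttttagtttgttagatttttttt
AT3G17100 (chr3:5830886-5831135, forward): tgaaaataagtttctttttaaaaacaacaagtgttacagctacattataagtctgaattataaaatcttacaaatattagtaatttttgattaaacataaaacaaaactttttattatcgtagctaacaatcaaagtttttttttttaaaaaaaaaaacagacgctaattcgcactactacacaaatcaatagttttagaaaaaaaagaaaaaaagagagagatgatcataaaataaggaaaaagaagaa
WOX5 (chr3:3527030-3527279, forward): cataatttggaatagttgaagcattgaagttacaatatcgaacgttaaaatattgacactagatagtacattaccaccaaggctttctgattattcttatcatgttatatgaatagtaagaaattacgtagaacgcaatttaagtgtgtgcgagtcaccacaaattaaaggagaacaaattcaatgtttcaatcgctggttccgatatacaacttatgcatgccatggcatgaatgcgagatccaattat
WIP4 (chr3:7315884-7316133, reverse): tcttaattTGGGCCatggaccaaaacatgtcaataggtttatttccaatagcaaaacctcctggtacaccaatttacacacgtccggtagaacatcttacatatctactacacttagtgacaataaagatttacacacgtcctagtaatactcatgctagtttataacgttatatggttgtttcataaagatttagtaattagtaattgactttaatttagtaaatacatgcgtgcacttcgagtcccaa
AT3G24100 (chr3:8702970-8703219, forward): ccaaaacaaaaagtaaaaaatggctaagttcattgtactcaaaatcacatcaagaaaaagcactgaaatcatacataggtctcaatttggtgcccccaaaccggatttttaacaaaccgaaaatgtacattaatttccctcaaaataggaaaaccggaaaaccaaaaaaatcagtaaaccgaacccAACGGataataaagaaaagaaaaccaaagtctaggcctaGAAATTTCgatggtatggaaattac

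The same motifs were counted before all genes whose groups did not overlap. Site II stood in 13.3% of the 315 protein-coding promoters of genes higher in the SCN, in 18.5% of the 680 of genes lower in the SCN, in 19.7% of the 17463 of genes tested and in 15.5% of all 27431 promoters. The G box stood in 9.21%, 11.8%, 8.98% and 7.68% of these sets, and the heat shock element in 13.7%, 8.53%, 11.2% and 11.6%. The telo box stood in 3.49%, 4.26%, 5.69% and 6.22%, and the auxin response element in 13.7%, 12.6%, 13.6% and 14.2%. The mitosis-specific core, which is short, stood in 26.7%, 28.2%, 26.7% and 24.7%, and the E2F sites in 0.952%, 0.882%, 1.3% and 1.21%. These shares describe the letters in the windows only.

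Most known regulators of the QC and niche were lower in the SCN samples than in the QC samples. Of 16 listed regulators 13 passed the filter, 12 had a difference below 0, 9 did so at an unadjusted p under 0.05, and 9 had every SCN sample below every QC sample, beside 59.7%, 2.45% and 3.78% of all genes tested. With the reporters WOX5 and AGL42 left out, 11 were tested, 10 had a difference below 0, 8 at an unadjusted p under 0.05 and 8 without overlap. None was called, and the median difference was -2.53, against -0.15 over all genes. The list holds genes known from QC studies, and leaving out single samples gave medians from -3.16 to -1.78 and 6 to 11 genes at an unadjusted p under 0.05. Without SCN replicate 3 the median was -1.78, with 8 such genes. The summed FPKM of the list without the reporters was 63.3, 454, 253 and 378 in SCN replicates 1 to 4 and 819.9, 927 and 644 in QC replicates 1 to 3. SCN replicate 1 had the lowest sum of the 7.

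The zinc finger genes of the WIP family, which act redundantly in root initiation in the embryo, had lower levels in every SCN sample than in every QC sample. WIP4 stood at 2.31, 38.1, 10.02 and 28.3 in SCN samples and at 113, 98.8 and 95.3 in QC samples (difference -2.85 ± 0.72, limma unadjusted p = 0.00178). WIP2 stood at 2.55, 27.7, 2.24 and 18.0 in the SCN and at 50.6, 57.9 and 50.7 in the QC. WIP5 stood at 2.17, 14.7, 0.0830 and 26.6 in the SCN and at 63.2, 96.2 and 41.7 in the QC. In all of these WIP genes SCN replicates 1 and 3 were the lowest of the 7 samples. In NSC samples WIP4 and WIP5 reached at most 0.283 and 0.146. TEL1, which encodes a MEI2-like RNA-binding protein, stood at 0.235, 19.2, 0 and 24.8 in the SCN and at 39.9, 71.0 and 48.4 in the QC. BRAVO, a MYB factor that represses QC division, stood at 4.33, 40.8, 0.420 and 14.4 in the SCN and at 87.8, 57.7 and 20.5 in the QC, so its groups overlapped through SCN replicate 2 and QC replicate 3.

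SCR and the PLETHORA factors, which position and maintain the niche, differed in the same direction. SCR, a GRAS factor needed in the QC and the endodermis, stood at 3.86, 16.7, 0 and 7.91 in the SCN and at 50.4, 27.5 and 23.5 in the QC. The AP2-type factor PLT1 stood at 13.5, 107, 68.0 and 116 in the SCN and at 215, 225 and 152 in the QC, a difference of -1.71 ± 0.63 (limma unadjusted p = 0.0191). PLT3 stood at 23.1, 66.1, 58.8 and 61.1 against 91.2, 144 and 70.6, and BBM at 5.65, 57.2, 12.6 and 43.4 against 57.7, 58.8 and 62.0. For BBM the QC samples were within a narrow range and SCN replicate 2 nearly reached them. PLT2 overlapped, at 4.499 to 64.3 in the SCN and 48.5 to 82.2 in the QC. AIL5 was high in SCN replicate 3 alone, at 63.9 against 0.0245 to 4.84 in the other 6 samples. PLT7, ANT and AIL1 did not pass the filter.

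**Figure D3:**
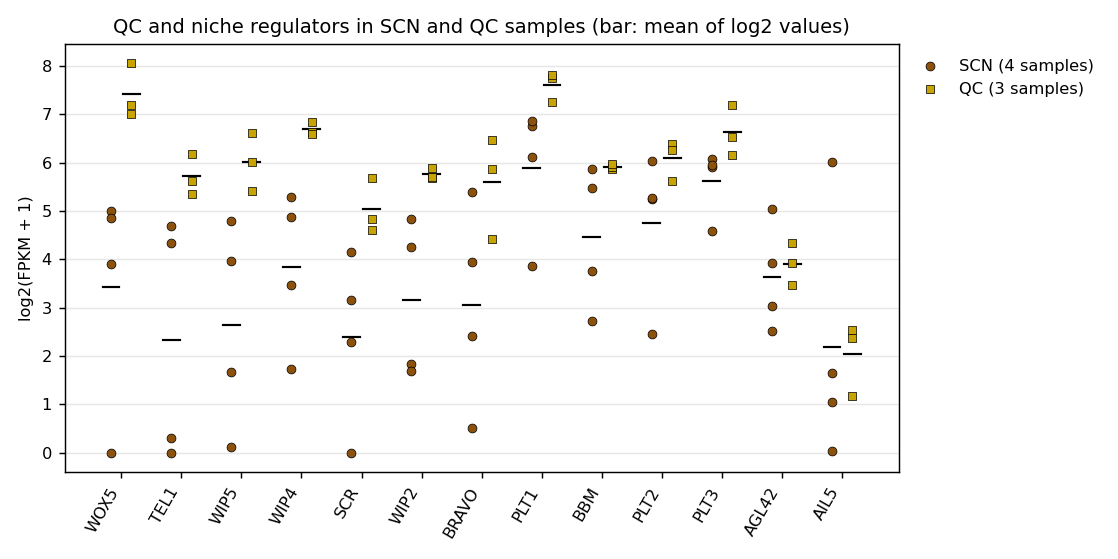
The 13 QC and niche regulators tested (x) at log2(FPKM + 1) (y), with a point for each of 4 SCN samples (brown circles) and 3 QC samples (yellow squares) and a bar at the mean of the log2 values, values of 0 included. QC points lie above all SCN points for WOX5, TEL1, WIP5, WIP4, SCR, WIP2, PLT1, BBM and PLT3, and overlap them for BRAVO, PLT2, AGL42 and AIL5.

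Peptide signals and their receptors keep the niche in place, and most of these genes had a lower mean in the SCN. Of the 16 genes for niche peptides and receptors, all were tested, 14 had a difference below 0, 4 did so at an unadjusted p under 0.05, and 3 did not overlap (median -0.94), beside 59.7%, 2.45% and 3.78% of all genes. The count at that p was 1 without QC replicate 2, 2 without SCN replicate 1 or 3 or QC replicate 3, and 7 without SCN replicate 2. RGF3, a sulphated root meristem growth factor that acts through the PLETHORA genes, stood at 64.6, 433, 331 and 417 in the SCN and at 672, 1380 and 646 in the QC (difference -1.75 ± 0.66, limma unadjusted p = 0.0200). RGF1 stood at 9.20, 48.2, 21.4 and 39.3 against 68.9, 53.8 and 59.9 (difference -1.25 ± 0.54). Every QC sample was above every SCN sample for both peptides, while RGF2 overlapped at 0.171 to 133 in the SCN and 26.5 to 388 in the QC. TPST, the tyrosylprotein sulphotransferase that activates RGF peptides, stood at 7.38 to 32.7 in the SCN and 32.3 to 54.4 in the QC. CLE40, a peptide that acts on columella stem cells through the receptor kinase ACR4, was listed at 0 in all 4 SCN samples and at 2.34, 3.77 and 44.0 in the QC. It passed the filter through the QC samples alone, so the filter fixed its separation. ACR4 itself stood at 0.204, 13.1, 8.38 and 8.14 in the SCN and at 10.6, 18.5 and 29.5 in the QC, and its groups overlapped.

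Auxin reaches its maximum at the QC, and genes for its synthesis, transport and response had a median below that of all genes, without a call. Of 43 genes 37 were tested, 26 had a difference below 0, 6 at an unadjusted p under 0.05 and 5 without overlap, and the median was -0.41, beside 59.7%, 2.45% and 3.78% of all genes. Without QC replicate 2 the median was -0.24. The count at that p was 3 without SCN replicate 1, QC replicate 2 or QC replicate 3. YUC3, a flavin monooxygenase that makes auxin, stood at 43.5, 236, 122 and 203 in the SCN and at 262, 342 and 517 in the QC (difference -1.50 ± 0.56, limma unadjusted p = 0.0200). The repressor IAA20 stood at 0.161, 72.8, 0.202 and 39.7 in the SCN and at 82.2, 116 and 215 in the QC, and IAA30 at 25.7, 44.2, 12.98 and 33.7 against 82.1, 70.8 and 67.9. The efflux carrier PIN4 overlapped, at 22.5 to 206 in the SCN and 187 to 265 in the QC. TAA1, the tryptophan aminotransferase of the same pathway, stood at 8.30, 59.95, 82.0 and 49.2 in the SCN and at 117, 90.4 and 73.6 in the QC. The related TAR2 stood at 10.7, 12.1, 13.7 and 0.0732 against 3.17, 21.6 and 3.84. The influx carrier AUX1, the receptor TIR1 and the efflux carrier PIN2 differed by -0.27, 0.27 and -0.06, less than their SEs of 0.38, 0.47 and 0.47.

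Cytokinin genes lay on both sides of 0, and most brassinosteroid genes had a lower mean in the SCN. Of 26 cytokinin genes 19 were tested, with 9 above 0 and 10 below and a median of -0.06, beside 40.3% and 59.7% of all genes. The genes lower at an unadjusted p under 0.05 (2.45% of all genes) were LOG3 and LOG4, phosphoribohydrolases that release active cytokinin and are known from young xylem. LOG3 stood at 0, 0, 0 and 1.26 in the SCN and at 13.04, 7.05 and 4.37 in the QC, and LOG4 at 1.14, 5.99, 0 and 0 against 16.3, 13.02 and 8.34. ARR6, a type-A response regulator, was the reverse. All its SCN samples (5.08 to 24.8) lay above all QC samples (0.856 to 4.87), as for 1.8% of all genes. Its limma unadjusted p was 0.0607. IPT5, which makes cytokinin, stood at 1.59 to 15.6 in the SCN and 0 to 6.90 in the QC, and IPT3 was listed at 0 in all 7 samples. Of the 13 brassinosteroid genes, 11 had a difference below 0 and 1, BRAVO, did so at an unadjusted p under 0.05, beside 59.7% and 2.45% of all genes. The median was -0.72, and -0.35 without QC replicate 2. The receptor BRI1 overlapped, at 40.2, 41.2, 46.7 and 30.03 in the SCN and 40.04, 49.1 and 41.4 in the QC. Its relative BRL1 overlapped at 0.0568 to 5.17 in the SCN and 3.03 to 12.2 in the QC. BES1, a transcription factor of the pathway, lay at 24.1 to 44.4 in the SCN and 48.3 to 108 in the QC, without overlap (3.78% of all genes).

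The QC is known to divide less than the initials around it, and genes of the division machinery were read for that reason. Of 42 cyclin, CDK and CDK inhibitor genes tested, 10 had a difference above 0 and 32 below, beside 40.3% and 59.7% of all genes (median -0.36). Of the 42, 1 was at an unadjusted p under 0.05 and none was without overlap. Of all genes, 1.8% were higher and 3.78% lower without overlap. The share at an unadjusted p under 0.05 lies near the 2.26% higher and 2.45% lower of all genes, so these counts are no result about these genes. Without SCN replicate 2 the count at that p was 5 and the median -0.63, and without SCN replicate 1 the median was -0.20, with 17 genes above 0. Of 37 genes for DNA replication and the E2F and retinoblastoma pathway, 19 were above 0 and 18 below (median 0.03), with 2 lower at an unadjusted p under 0.05 and 1 without overlap. Of all genes, 2.45% were lower at that p and 3.78% lower without overlap. The count without overlap is near that share and is no result about these genes. The replication median ran from -0.21 without QC replicate 3 to 0.38 without SCN replicate 1. Of 23 genes for mitosis and cytokinesis 6 were above 0 and 17 below (median -0.43), with none at an unadjusted p under 0.05, and without SCN replicate 2 there were 3 and the median was -0.74. SCN replicate 2 was the highest of the 7 samples for several of these genes. The B-type cyclin CYCB1;2 stood at 6.04, 102, 5.32 and 1.87 in the SCN and 45.9, 44.4 and 27.6 in the QC. The mitotic kinase AUR1 stood at 3.15, 45.9, 0.849 and 4.89 in the SCN and 17.5, 32.2 and 21.2 in the QC, and AUR2 at 2.28 to 12.8 against 3.92 to 15.9. CCS52B, an activator of the anaphase-promoting complex, was the gene with a limma unadjusted p under 0.05 (0.0310), at 2.21, 35.1, 0.536 and 2.82 in the SCN and 18.7, 65.6 and 14.5 in the QC. CYCA1;1 and CYCA2;1 overlapped, with differences of -1.08 ± 0.94 and -0.22 ± 0.75. The replicative helicase subunits MCM2 and MCM3 differed by -0.37 ± 0.51 and 0.98 ± 0.59. ORC1A, a subunit of the origin recognition complex, lay at 0 to 3.08 in the SCN and 4.03 to 13.9 in the QC, without overlap (3.78% of all genes).

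Genes of the ground tissue lay on both sides of the comparison. Of 18 genes 15 were tested, 2 being higher and 4 lower in the SCN at an unadjusted p under 0.05, beside 2.26% and 2.45% of all genes (median -0.58). The median was -0.18 without QC replicate 1 and -1.82 without QC replicate 3. The count of lower genes was 1 without QC replicate 1, 2 without QC replicate 2 and 6 without QC replicate 3, and that of higher genes was 1 without SCN replicate 2 or 4 or QC replicate 3. CO2, a gene of the cortex, stood at 2.95, 102, 35.2 and 37.5 in the SCN and at 1.81, 0 and 3.31 in the QC (limma unadjusted p = 0.00379). MGP, a zinc finger target of SHR and SCR in the ground tissue, stood at 5.62, 62.8, 17.4 and 21.8 in the SCN and 4.42, 11.4 and 0.133 in the QC. CASP5, CASP1 and MYB36, which belong to the differentiated endodermis, were highest in QC replicate 1. CASP5, a membrane protein of the Casparian strip, passed the filter through the QC samples alone and was listed at 0 in all SCN samples and at 27.8, 5.62 and 5.54 in the QC. CASP1 stood at 10.6, 0.481, 0 and 0 in the SCN and at 167, 18.7 and 0.531 in the QC, and MYB36, which activates the CASP genes, at 0, 0, 0 and 1.40 against 40.3, 19.9 and 0.0464. CASP1 and MYB36 overlapped through QC replicate 3, and in the NSC samples they were far higher, at 444 to 788 for CASP1 and 64.9 to 80.0 for MYB36. The summed FPKM of the list was 51.5 to 275 in the SCN and 48.1, 178 and 566 in the QC, with the highest in QC replicate 1, and its part in these results was not tested. SHR, which moves from the stele to specify these cells, stood at 4.95, 2.16, 9.89 and 0 in the SCN and 3.49, 2.69 and 4.57 in the QC. In the xylem population SHR averaged 128. Its target CYCD6, the D-type cyclin of the cortex and endodermis initial, was low in both, at up to 3.87 and 1.61.

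Markers of the outer layers varied among the samples of each population. Of 16 epidermal and lateral root cap genes tested none reached an unadjusted p under 0.05 and none separated the groups (median -0.25). Of all genes, 2.26% were higher and 2.45% lower at that p, and 1.8% and 3.78% were without overlap. The counts of the list lie near those shares and are no result about these genes. Without single samples up to 2 genes reached that p, both of them lower without SCN replicate 1, and the median ran from -0.52 without QC replicate 1 to 0.01 without QC replicate 2. FEZ, a NAC factor of the initials of these layers, stood at 9.91, 18.1, 36.9 and 16.0 in the SCN and 10.3, 43.9 and 32.7 in the QC. SMB, the NAC factor that opposes it, stood at 15.4, 10.7, 99.9 and 15.6 in the SCN and 10.01, 75.3 and 36.6 in the QC. Root hair genes were high in a few samples. COBL9 stood at 451 in SCN replicate 1, 125 in SCN replicate 4 and 265 in QC replicate 2, and at most at 16.0 in the other 4 samples. EXPA7 stood at 172 and 235 in SCN replicates 1 and 4 and at most at 24.8 elsewhere. The summed FPKM of the list was 1114, 381, 425 and 704 in the SCN and 329, 719 and 554 in the QC, so SCN replicate 1, with the lowest niche regulators, had the highest sum here. The part of these cells in the SCN and QC differences was not tested.

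The columella and xylem lists had medians below that of all genes. All 12 columella genes were tested, and 11 had a difference below 0, beside 59.7% of all genes (median -1.26). The 2 that separated the groups, beside 3.78% of all genes, were CLE40 and the plastid phosphoglucomutase gene PGM1. CLE40 passed the filter through the QC samples alone, so the filter fixed its separation. CLE40 and PGM1 were also the genes at an unadjusted p under 0.05, beside 2.45% of all genes. The count at that p was 5 without QC replicate 1 and 6 without SCN replicate 2. PGM1 stood at 4.82, 16.7, 1.12 and 6.50 in the SCN and at 21.9, 26.4 and 37.1 in the QC. The list summed to 92.8 to 426 in the SCN and to 347 to 719 in the QC. All 9 xylem genes that passed the filter of 15 had a difference below 0, beside 59.7% of all genes (median -1.26). An unadjusted p under 0.05 was reached by 4, with LOG3 and LOG4 among them, beside 2.45% of all genes. The count at that p was 2 without SCN replicate 1, QC replicate 2 or QC replicate 3. HB-8, a class III homeodomain leucine zipper factor of the procambium, stood at 0.103, 9.91, 6.96 and 10.3 in the SCN and 12.2, 24.2 and 25.7 in the QC. LHW, a bHLH partner of TMO5, stood at 12.4, 49.1, 10.4 and 23.5 against 35.1, 62.2 and 71.6, and TMO5 and T5L1 did not pass the filter, at up to 1.62 and 3.71. In the xylem population TMO5 and T5L1 averaged 1081 and 195. Only 5 of 14 phloem genes passed (median -0.25). The inositol phosphatase gene CVP2 reached 1.77 and did not pass, and its relative CVL1 stood at 0 to 3.91 in the SCN and 1.38 to 2.68 in the QC. The summed FPKM reached at most 140.5 for the xylem list and 26.1 for the phloem list in any sample.

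Aquaporins, the water channels of the plasma membrane (PIP) and the vacuole (TIP), had the highest median difference of the lists examined. Of 20 genes 17 passed the filter, and all 17 had a difference above 0 (0.00 for PIP2;8 after rounding), with a median of 1.00. An unadjusted p under 0.05 was reached by 5, and 1 separated the groups. Of all genes, 40.3% lay above 0, 2.26% did so at that p and 1.8% without overlap. None was called. PIP2;4 stood at 522, 166, 272 and 608 in the SCN and at 159, 139 and 79.7 in the QC (difference 1.51 ± 0.51, limma unadjusted p = 0.0112), with no overlap. PIP1;5 stood at 107, 177, 404 and 330 against 152, 27.7 and 28.4, and overlapped through QC replicate 1. The vacuolar GAMMA-TIP stood at 308, 127, 123 and 552 in the SCN and at 166, 92.0 and 1.33 in the QC, and TIP2;3 at 182, 115, 17.4 and 267 against 64.9, 33.7 and 2.39. QC replicate 3 was the lowest sample for both. Without QC replicate 3 the count at an unadjusted p under 0.05 was 1 and the median 0.59, and without SCN replicate 1 or 4 the count was 3. PIP1B, the member with the highest SCN mean, stood at 1242, 434, 872 and 1099 in the SCN and 598, 863 and 411 in the QC. The family summed to 8629, 4056, 5268 and 9562 in the SCN and 4325, 4947 and 2461 in the QC, so the groups overlapped through SCN replicate 2. The highest sums were in SCN replicates 1 and 4, in which the root hair genes COBL9 (451 and 125) and EXPA7 (172 and 235) were also high, and the part of those cells in the aquaporin difference was not tested. NSC samples held these genes too, at 171 to 322 for PIP2;4 and 449 to 846 for GAMMA-TIP.

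**Figure D4:**
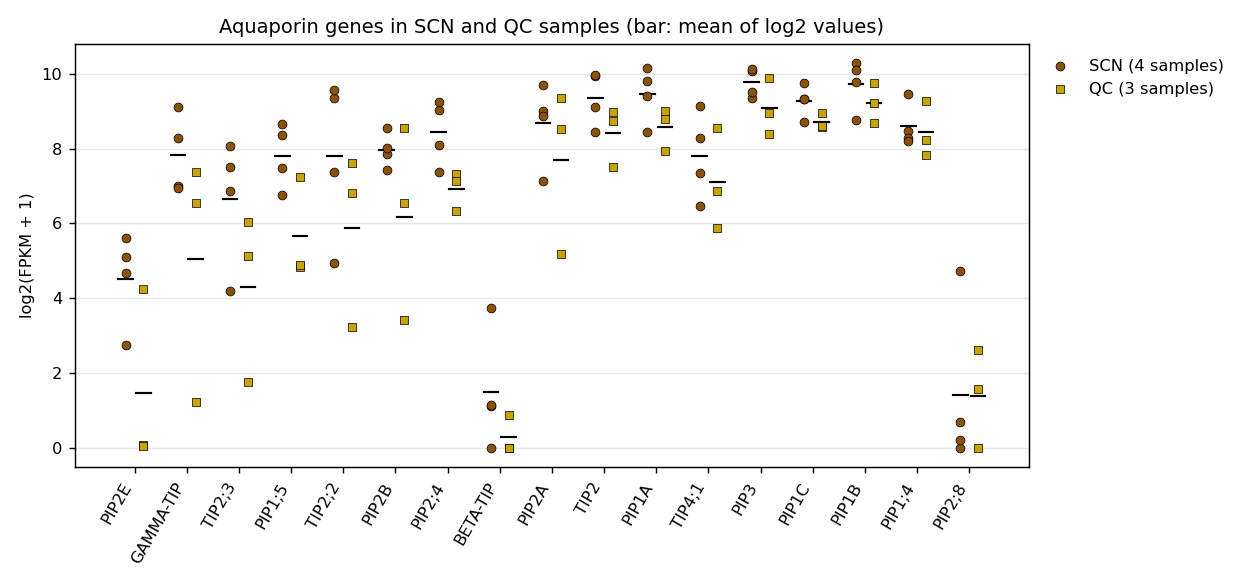
The 17 aquaporin genes tested (x) at log2(FPKM + 1) (y), with a point for each of 4 SCN samples (brown circles) and 3 QC samples (yellow squares) and a bar at the mean of the log2 values. The SCN mean lies above the QC mean for each gene but PIP2;8, whose means are nearly level, and the points overlap for all but PIP2;4.

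The remaining families and lists gave no call, and are to be read beside the 40.3% of all genes above 0 and the 59.7% below. Of 289 genes for ribosomal proteins outside the organelles, 119 were above 0 and 170 below (median -0.07), and the median changed sign between -0.37 and 0.33 when single samples were left out. Their summed FPKM was 32352 in SCN replicate 1 and 140192 in SCN replicate 2, with the QC between 62951 and 112158. Of 42 histone genes 30 were above 0 (median 0.20), with none at an unadjusted p under 0.05. Without SCN replicate 1 the histone median was 0.77, with 13 genes higher at that p, and without SCN replicate 3 the median was -0.11. Genes of the plastid and mitochondrial genomes had medians of 0.06 over 78 genes and 0.32 over 51 genes, and without QC replicate 3 the plastid median was -0.84. Of 11 alpha-expansins 4 were above 0, and of 10 thaumatin family genes 5. Within the last, AT1G73620 stood at 57.7, 543, 36.7 and 85.0 in the SCN and 32.4, 22.8 and 9.54 in the QC, with no overlap (1.8% of all genes). Of 12 DNA methylation genes 10 were below 0 (median -0.65). MET1, which maintains CG methylation, differed by 0.63 ± 0.75 and CMT2 by -1.08 ± 0.77, while RDR2, an RNA polymerase of the small RNA pathway, lay at 0.0562 to 8.04 in the SCN and 8.42 to 27.98 in the QC. Of 21 heat, wound and jasmonate genes, which can respond to the preparation of protoplasts, 10 were above 0 and 11 below (median -0.03), and the median ran from -0.31 without QC replicate 2 to 0.33 without QC replicate 3. HSP101 and HSP70 were the 2 at an unadjusted p under 0.05, both lower in the SCN, beside 2.45% of all genes. They stood at 2.50 to 8.19 and 10.7 to 79.0 in the SCN and at 8.05 to 23.3 and 55.6 to 87.0 in the QC. The count at that p was 0 without SCN replicate 4, QC replicate 1 or QC replicate 2.

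**Figure D5:**
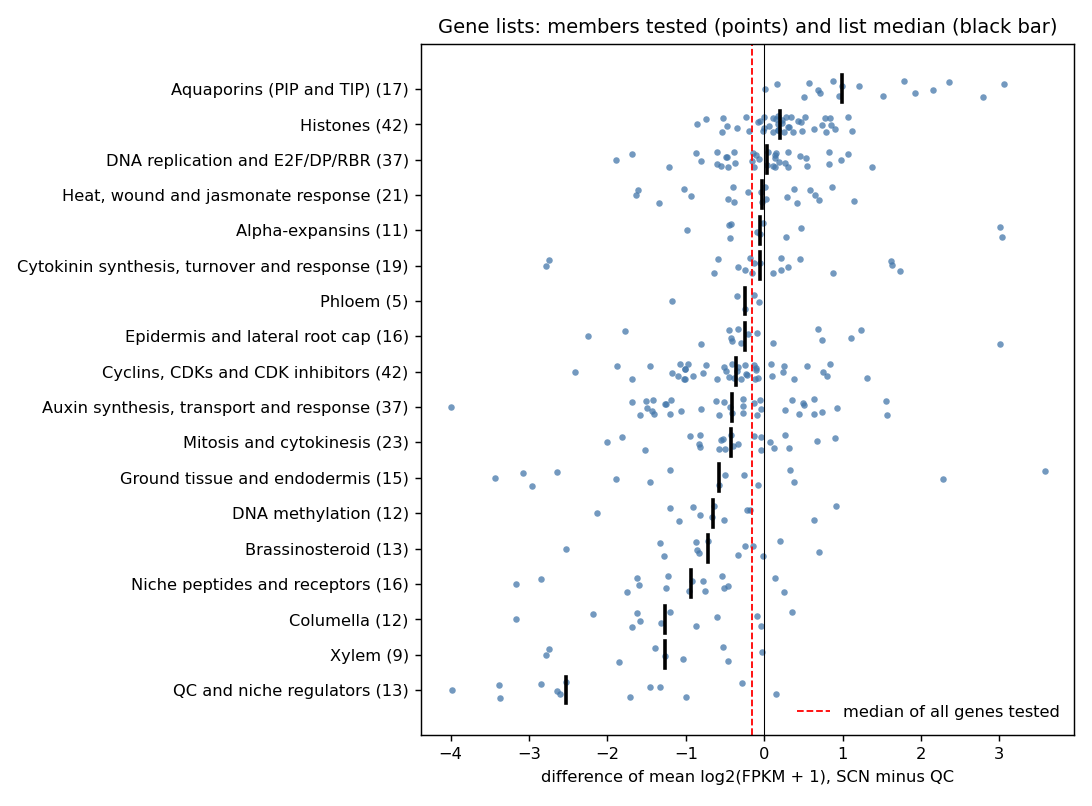
Points are the genes tested in each list (number in brackets) at their difference in mean log2(FPKM + 1), SCN minus QC (x), with the list median as a black bar and the median of all genes tested, -0.15, as a dashed line. The median is lowest for the QC and niche regulators, at -2.53, and highest for the aquaporins, at 1.00.

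Apart from AT3G17100, the genes with the smallest p, no overlap and a mean FPKM of at least 5 on the higher side were read in each direction, and none of these was called. On the SCN side, AT3G24100, a SERF family protein gene, stood at 65.9, 68.3, 98.5 and 48.7 in the SCN and at 21.9, 8.82 and 8.05 in the QC (difference 2.45 ± 0.47, limma adjusted p = 0.501). AT3G14475, a small nucleolar RNA gene, stood at 17.5, 94.7, 132 and 70.5 against 15.2, 0 and 0. MAP18, a microtubule-associated protein gene, stood at 280, 100, 58.1 and 329 in the SCN and at 26.7, 23.7 and 43.8 in the QC. The protein kinase gene CIPK9, which acts with calcium sensors, stood at 30.2, 9.12, 16.8 and 16.7 against 4.11, 0.0353 and 0. AT4G20860, a berberine family oxidase gene, stood at 24.3, 12.4, 22.3 and 30.7 against 6.06, 0.340 and 0.150. QC replicate 1 was the highest QC sample for all of these but MAP18. The others were AT2G35730, a heavy metal transport family gene (4.55 to 25.6 in the SCN, 0 to 0.521 in the QC), AT1G78190, a Trm112p-like gene (6.76 to 32.0, 0 to 2.21), AT1G31750, a proline-rich family gene (4.36 to 26.5, listed at 0 in all QC samples), AT5G36270 (2.61 to 32.5, 0 to 0.700) and AT2G06045 (20.9 to 49.3, 0 to 7.004). AT2G35730, AT1G31750 and AT5G36270 passed the filter through SCN samples alone, which favoured their separation.

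On the QC side, SKS6, a gene of the SKU5-similar family of multicopper oxidase-like proteins, gave the smallest p. It stood at 13.1, 7.13, 0.930 and 7.28 in the SCN and at 348, 98.7 and 199 in the QC, a difference of -4.87 ± 0.67 (limma adjusted p = 0.0826). WOX11, a WUSCHEL-related homeobox gene known from the founding of adventitious roots, stood at 5.48, 19.7, 8.42 and 7.31 in the SCN and at 51.4, 93.0 and 51.5 in the QC (difference -2.65 ± 0.52, limma adjusted p = 0.520). DOF2, a zinc finger gene, stood at 1.24, 2.77, 0 and 0 against 19.8, 15.6 and 28.2. The MADS-box gene PI, known from petals and stamens, stood at 4.06, 4.13, 0 and 3.31 against 52.9, 25.03 and 17.2. UCC1, a uclacyanin gene, stood at 3.48, 1.98, 0 and 0.414 in the SCN and 123, 23.8 and 9.42 in the QC. SKS6, WOX11, DOF2, PI and UCC1 each had all QC samples above all SCN samples. SADHU3-2, annotated within the SADHU family of retroelement-like loci, stood at 2.73, 0.679, 0.132 and 2.32 against 35.3, 27.3 and 104, and AT1G07175 at 3.99, 15.1, 0 and 0.501 against 45.1, 115 and 135. AT5G66607, AT2G03822 and AT3G58950 passed the filter through the QC samples alone. AT5G66607 and AT2G03822 were listed at 0 in all 4 SCN samples and at 15.3 to 62.9 and 5.97 to 14.5 in the QC. AT3G58950, an F-box family gene, stood at 0 to 0.670 in the SCN and 6.24 to 13.6 in the QC.

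The 21 samples that the comparison did not use were then read for the genes whose groups did not overlap, which are no more than chance gives. Of the 328 genes higher in the SCN, 121 (36.9%) had their highest mean in the protophloem and 117 (35.7%) in NSCs, against 18.7% and 18.7% of all genes tested. Of the 689 genes lower in the SCN, 330 (47.9%) had their highest mean in the columella stem cells, against 29.7% of all genes, and 43 (6.24%) in the protophloem. The xylem population held the highest mean for 17.9% of the genes lower and 4.57% of the genes higher in the SCN, against 18.5% of all genes. The cortex endodermis initials held 4.35% and 5.49%, against 3.9%, and the epidermis and lateral root cap population 12.6% and 4.27%, against 10.5%. The mean of the NSC samples lay nearer the SCN mean than the QC mean for 75.3% of the genes higher and 67.9% of the genes lower in the SCN, against 61.1% of all genes. These shares were 75.3%, 85.9% and 64.5% for the protophloem, 68.6%, 72.9% and 60.9% for the cortex endodermis initials, and 36.3%, 30.8% and 41.8% for the columella stem cells. They were 26.8%, 61.4% and 49.2% for the epidermis and lateral root cap population and 27.4%, 55.3% and 47.5% for the xylem population. MAP18 averaged 615 in the protophloem and 224 in NSCs. SKS6 averaged 179 in the protophloem, 148 in the epidermis and lateral root cap population and 10.09 in NSCs. UCC1 and CASP5 averaged 305 and 90.2 in NSCs, against 52.1 and 12.99 in the QC. WOX11 averaged 94.9 in the columella stem cells, against 65.3 in the QC. SADHU3-2 averaged 81.3 in the columella stem cells and 96.7 in the xylem, against 55.4 in the QC. The other genes of smallest p on the QC side averaged less in every other population than in the QC.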

How the data were processed

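RNA-Seq was performed on sorted root cells. Per gene FPKM was made by the authors from single-end reads with Bowtie, Tuxedo and Rsubread, and the submitters' processing notes name TopHat2 2.0.13, Cufflinks 2.1.1 and TAIR10. The authors deposited FPKM for 28 samples, with no normalization between samples stated for them; read counts were not used here. FPKM values were transformed to log2(FPKM + 1), a scale on which differences of low genes are understated, and the 4 SCN and 3 QC samples were fitted with a mean per population. The 2-sided moderated test of limma 3.58.1 (trended prior variance, R 4.3.3) was used, after it was tested on simulated data. The study's test takes counts and was not used. The replicates are biological replicates, and their numbers were not used as pairs.

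Members and lists were chosen with earlier results of these data known. Genes named were the reporters, the leading 2 of each list, and the 12 in each direction with the smallest p, no overlap and a mean FPKM of at least 5 on the higher side. Others named were chosen after their values were seen. Of the identifiers, 32489 have a locus in TAIR10.1, which gave names, families and promoter sequences. Tables and figures used Python 3.11.15, numpy 2.4.6, pandas 2.3.3 and matplotlib 3.10.9. The 17 alternatives covered pseudocount, filter, scaling, model, threshold and single samples left out.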

Additional observations from a re-analysis of the deposited data

Results flagged for a closer look

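Among the genes named, the 4 SCN samples were searched for a sample far from the other 3 on the log2(FPKM + 1) scale (Dixon's criterion at the 95% level, which chance passes in about 1 in 20 groups). Of 49 genes, 4 had such a sample. AT3G17100 stood at 66.0 in SCN replicate 3, against 32.1 to 35.2 in the other SCN samples. PI was listed at 0 in SCN replicate 3, against 3.31 to 4.13. SMB stood at 99.9 in SCN replicate 3, against 10.7 to 15.6. TAR2 stood at 0.0732 in SCN replicate 4, against 10.7 to 13.7.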

How the results depend on the processing

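The number of genes called higher in the SCN was 0 with a pseudocount of 0.1, with no filter on low values or with the replicate block, 5 with all 28 samples fitted together and 2 with array quality weights. The number called lower was 11 with all 28 samples together and 2 with array quality weights, a setting in which the added genes were AT3G17090, SKS6 and AT5G66607. Without a single replicate, 0 to 2 genes were called higher and 0 to 1 lower. The extra calls came without SCN replicate 3, which added SKS6 and AT5G24879. AT3G17100 kept its direction throughout and lost its call at a pseudocount of 0.1 (difference 8.20, adjusted p = 0.0809), with no filter (5.29, adjusted p = 0.189) and with the replicate block (5.34, adjusted p = 0.506); without a single replicate its difference ran from 5.05 to 5.39. Over the alternatives the adjusted p of WOX5 ran from 0.0759 to 1.00 and that of AGL42 from 0.827 to 1.00, and neither was called. Without a single replicate the difference of WOX5 ran from -4.50 to -2.83 and that of AGL42 from -0.75 to 0.09. Without SCN replicate 3 the list median was -0.40 for brassinosteroid, -0.31 for ground tissue, -0.26 for cytokinin and -0.15 for replication genes. It was -0.37 for the alpha-expansins, 0.32 for the plastid genome and 0.64 for the mitochondrial genome.

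Without a single replicate, a choice added after the data were seen, 450 to 958 genes did not overlap with the SCN higher and 1048 to 1682 with the SCN lower, since fewer samples have to be separated. At an unadjusted p under 0.05, 540 genes were higher and 326 lower with size factors, against 411 and 446. The replicate numbers are shared by the groups. Same-numbered deviations correlated at -0.14, -0.07 and 0.07, and differently numbered ones from -0.138 to 0.145. These values span the same range, so they cannot decide whether the numbers pair the samples. In the replicate block fit, SCN replicate 4 had no QC sample of its number and did not inform the difference. FPKM carries no depth, so the precision of low values is not known.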
